A study of Mus musculus with 40 samples.

Results

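The 10 genes of the urea cycle and of the reactions that feed nitrogen into it described here were followed in mouse liver after dosing with GenX, the ammonium salt of a short-chain perfluoroalkyl ether carboxylic acid. The genes were chosen by symbol in the deposited table of probe counts, and they are 10 of its 21448 gene symbols. They are Cps1, Otc, Ass1, Asl and Arg1, the enzymes of the cycle itself; Nags, which makes the activator of Cps1; and Gls2, Glud1, Got1 and Gpt, which release ammonia from amino acids or move amino groups between them. The table holds 17 probes for these genes, all of which had enough reads to be tested, and each gene is described by its most counted probe with the other probes as a check.

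The animals were wildtype Crl:CD1(ICR) mice, an outbred stock, for which the labels give no age. Doses of GenX in deionized water were given by gavage for 90 days, at 5, 0.5 or 0.1 mg/kg/day, and the controls received deionized water alone. Males and females formed separate series with 5 mice per sex and dose, 40 in all, and RNA was read by a targeted probe assay (TempO-Seq) from 1 fixed, paraffin-embedded section of liver per mouse. Mouse 355, from the female series at 0.5 mg/kg/day, was left out because the 6711981 reads of its library fell below the depth limit of 9680193, so that group held 4 mice and 39 libraries were compared.

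Periportal hepatocytes turn ammonia into urea. In their mitochondria Cps1 joins ammonia and bicarbonate into carbamoyl phosphate, and Otc transfers it to ornithine to give citrulline. In the cytosol Ass1 and Asl add a nitrogen from aspartate and release arginine, which Arg1 splits into urea and ornithine. Transcription of these genes in liver is known to depend on factors such as Hnf4a and C/EBP proteins and to respond to glucocorticoid and glucagon.

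Each library held 10341341 to 15562253 reads. The most frequent low count, taken as the number of reads that stands for 1 captured molecule, lay between 20.8 and 49.8 reads, so that a library rested on an estimated 287727 to 655905 molecules. These estimates were not even across the groups. The 5 libraries of males at 5 mg/kg/day held 483549 to 655905 molecules and the control males 287727 to 369710, without overlap, whereas females at 5 mg/kg/day held 304572 to 339376 and control females 307993 to 522313. Whether this affected the male comparison was not tested beyond the refit on molecule counts given with the limits. Reads of the 4 Y-linked genes with a probe were present in 20 of 20 libraries labelled male and in 0 of 19 labelled female. Levels below are given as CPM, the reads of a probe relative to the scaled total of its library. A change was called when the Benjamini-Hochberg adjusted p from the quasi-likelihood test of edgeR over all probes was below 0.1.

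Upstream sequence is shown for Otc, Ass1 and Glud1, because these 3 members were lower at 5 mg/kg/day in both sexes and have an entry in the RefSeq promoter table of GRCm38.p6, in which 5 of the 10 genes had one. Each run is on the plus strand, 5′ to 3′, and stops 1 base before the gene start of GENCODE. Capitals mark matches on either strand to TTNNGNAA, a form of the C/EBP motif, or to GGGCGG, the core of the GC box, where overlapping matches are joined. The window of Otc was chrX:10252055-10252304, that of Ass1 chr2:31470020-31470206 and that of Glud1 chr14:34310477-34310726.
Otc: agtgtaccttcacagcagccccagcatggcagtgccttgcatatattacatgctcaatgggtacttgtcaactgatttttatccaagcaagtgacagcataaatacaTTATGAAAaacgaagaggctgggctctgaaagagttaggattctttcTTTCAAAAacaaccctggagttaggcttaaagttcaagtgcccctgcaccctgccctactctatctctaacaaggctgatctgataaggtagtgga
Ass1: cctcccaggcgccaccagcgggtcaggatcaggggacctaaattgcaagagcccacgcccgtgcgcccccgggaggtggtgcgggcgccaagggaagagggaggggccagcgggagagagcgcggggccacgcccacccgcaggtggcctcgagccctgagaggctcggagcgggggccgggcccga
Glud1: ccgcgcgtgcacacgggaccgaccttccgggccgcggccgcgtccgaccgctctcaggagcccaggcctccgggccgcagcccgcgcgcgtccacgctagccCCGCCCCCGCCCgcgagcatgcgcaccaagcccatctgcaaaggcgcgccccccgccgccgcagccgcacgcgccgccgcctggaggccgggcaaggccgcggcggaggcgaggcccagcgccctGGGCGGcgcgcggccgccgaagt
The 250 bases before Otc, the mitochondrial enzyme that makes citrulline, held 2 matches to TTNNGNAA and 0 to GGGCGG. The 250 bases before Glud1 held 0 and 3. Among all 32851 promoters, 36.8% held TTNNGNAA and 32.7% held GGGCGG in a window of that length. The 187 bases before Ass1 held neither motif, compared with 30.9% and 22.2% of promoters over the same length. The 3 genes therefore shared neither motif in these windows.

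At 5 mg/kg/day, 7 of the 10 genes were lower in males than in control males, namely Cps1, Otc, Ass1, Asl, Arg1, Gls2 and Glud1, and 0 were higher. Across all 12412 genes tested on 1 probe each, 3.75% were lower in that comparison. In females 6 of the 10 were lower, the same genes without Arg1, and 0 were higher, where 2.00% of all genes were lower. The median log2 fold change of the 10 genes was -1.01 in males and -0.85 in females, compared with 0.11 and -0.01 over all genes. In each sex, 5 of the 10 genes had every mouse at 5 mg/kg/day below every control, which held for 3.38% of all genes in males and 1.58% in females. These changes are relative to the library total. Median estimated molecules in control males and males at 5 mg/kg/day were 1706 and 1330 for Ass1, 197 and 155 for Asl. They were 96.2 and 76.4 for Gls2 and 22.8 and 17.6 for Cps1. For Otc they were 42.1 and 43.4, for Arg1 1180 and 1516, and for Glud1 334 and 369, and so not lower. With the library of mouse 355 kept in the fit, 3 of the 10 were called in each sex, Ass1, Asl and Gls2. Calls fell over all probes too. In that fit 1.92% of probes were lower in males and 0.667% in females, against 3.45% and 1.83% without that library. The plot of levels by mouse shows these steps for each gene.

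**Figure D1:**
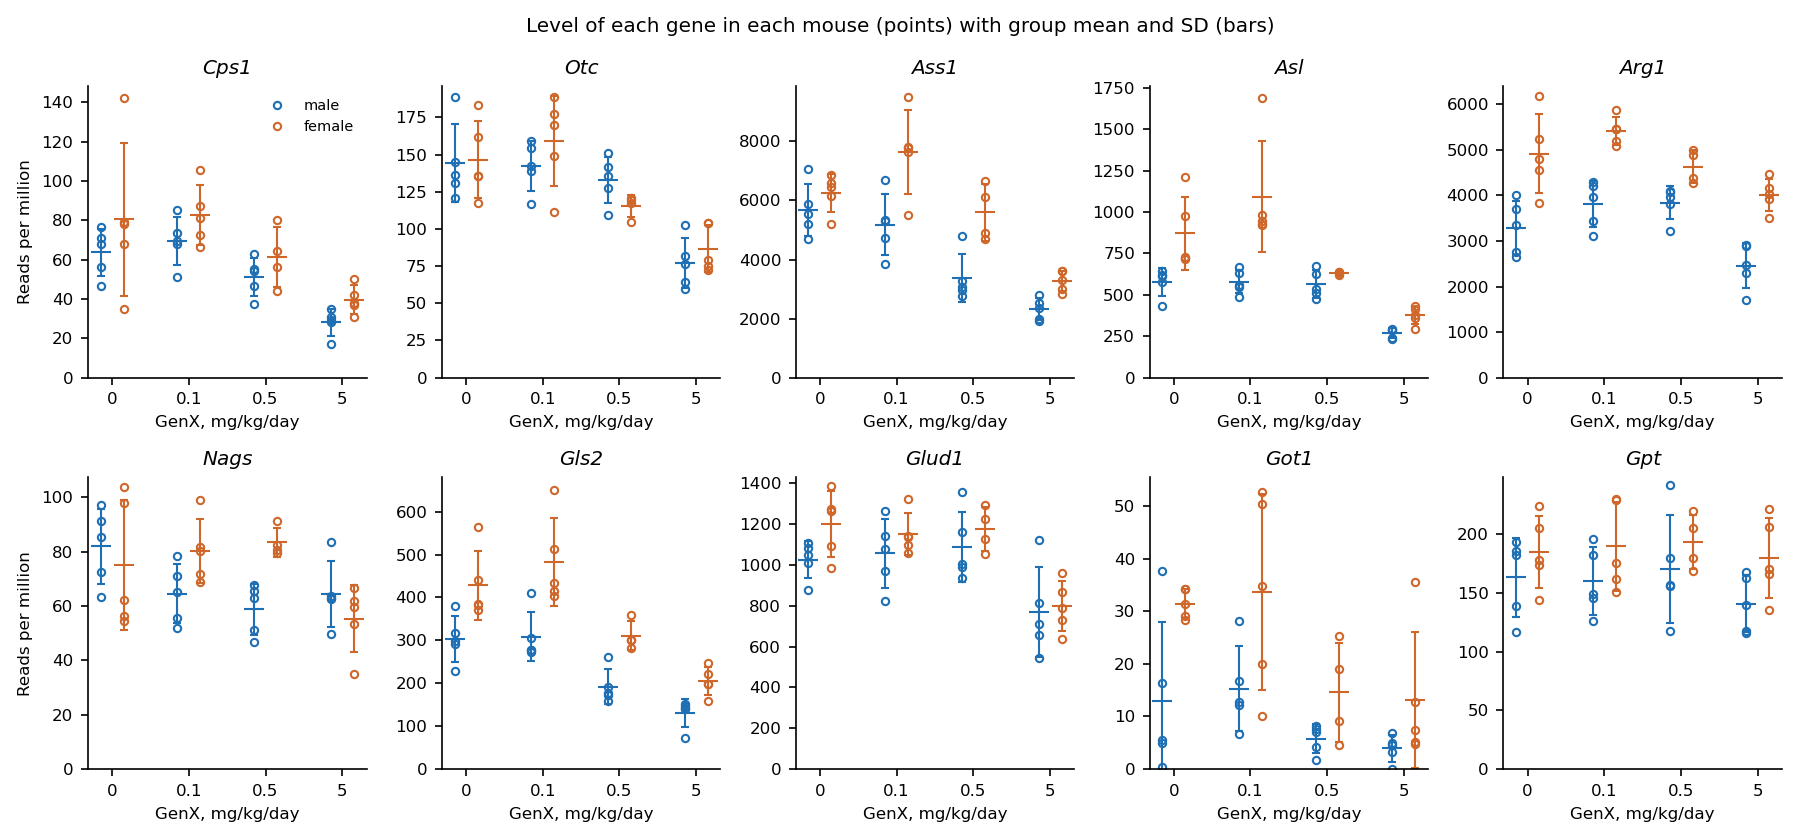
Level of the 10 genes in each mouse, in CPM on a linear axis from 0, by GenX dose (mg/kg/day) and sex; points are mice, and bars are the group mean and SD (n = 5, or 4 for females at 0.5 mg/kg/day). Ass1 in males falls from 4679 to 7065 in controls to 1926 to 2784 at 5 mg/kg/day, while Gpt overlaps between all doses.

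Ass1, the cytosolic enzyme that joins citrulline and aspartate, was the most abundantly read member. In the control males it stood at 4679, 5891, 5216, 7065 and 5547 CPM. At 0.5 mg/kg/day the males had 3054, 4805, 2965, 3285 and 2757 CPM, and at 5 mg/kg/day 1926, 1975, 2363, 2533 and 2784. All males at 5 mg/kg/day lay below all controls, and at 0.5 mg/kg/day 1 mouse overlapped them. The log2 fold change was -0.75 ± 0.14 (SE) at 0.5 mg/kg/day (adjusted p = 0.000939, edgeR) and -1.29 ± 0.15 at 5 mg/kg/day (adjusted p = 2.41e-09), the latter a level 2.45-fold lower. In control females Ass1 stood at 6853, 6591, 6472, 5196 and 6150.4 CPM, and at 5 mg/kg/day at 3603, 2833, 3318, 3615 and 2998. The groups did not overlap, and the log2 fold change was -0.93 ± 0.14 (adjusted p = 8.79e-06). Females at 0.5 mg/kg/day had 6132, 6665, 4889.8 and 4698 CPM, a log2 fold change of -0.16 ± 0.15 that did not pass the test (adjusted p = 1).

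Asl, which releases arginine and fumarate from argininosuccinate, was lower at 5 mg/kg/day in both sexes and was not called at lower doses. Control males had 621, 429.6, 574, 613 and 641 CPM, and males at 5 mg/kg/day 238, 231, 290.1, 292 and 286. Control females had 716, 1209.5, 977, 724 and 727 CPM, and females at 5 mg/kg/day 413, 358, 432, 377 and 296. Neither pair of groups overlapped. Asl was 2.15-fold lower in males (log2 fold change -1.11 ± 0.16, adjusted p = 6.23e-07, edgeR) and 2.32-fold lower in the female series (-1.21 ± 0.16, adjusted p = 1.45e-07). In females at 0.5 mg/kg/day the 4 values of 633, 619, 636 and 635 CPM lay below all 5 controls, with a log2 fold change of -0.46 ± 0.16 (unadjusted p = 0.00683, adjusted p = 0.485, edgeR). In males at 0.5 mg/kg/day Asl overlapped the controls, with a log2 fold change of -0.03 ± 0.15.

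Cps1, the enzyme that commits ammonia to the cycle, was read at a low level here, since its single probe gave a median of 22.8 estimated molecules per control male and 17.6 per male at 5 mg/kg/day. Levels of different genes were not compared, because probes differ in efficiency. Control males had 76.7, 56.4, 70.8, 67.8 and 46.7 CPM, and males at 5 mg/kg/day 17.1, 35, 29.1, 28.2 and 30.8, without overlap. Control females spread widely, at 67.8, 34.9, 78.1, 79.3 and 142 CPM, and the 50.4, 38.2, 37, 30.9 and 42 CPM at 5 mg/kg/day overlapped the lowest of them. On the log2 scale Cps1 changed by -1.18 ± 0.24 in males (adjusted p = 0.000496, edgeR), and by -1.02 ± 0.24 in the female series (adjusted p = 0.00683). The female call rested on the control mouse 155, the highest of its group. Without it the log2 fold change was -0.71 (adjusted p = 0.114, edgeR).

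Otc, the next mitochondrial step, stood at 121, 145, 189, 131 and 137 CPM in control males and at 81.6, 64.4, 59.6, 76.1 and 103 CPM at 5 mg/kg/day. In females it stood at 117, 162, 183, 135 and 135 CPM in controls and at 104, 75.0, 79.2, 104 and 72.1 CPM at 5 mg/kg/day. The groups did not overlap in either sex. Otc was lower in males, at -0.91 ± 0.17 on the log2 scale (adjusted p = 0.000107, edgeR), and likewise in the female series, at -0.76 ± 0.17 (adjusted p = 0.00316). At 0.5 mg/kg/day the values were -0.12 ± 0.17 in males and -0.34 ± 0.18 in females, and neither passed the test.

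Arg1, which produces urea in the last step, changed least among the 5 cycle enzymes at 5 mg/kg/day. Control males had 3698, 2643, 2755, 3352 and 4015 CPM and males at 5 mg/kg/day 2909.7, 1712, 2304, 2879.5 and 2477, so the groups overlapped. This log2 fold change, -0.42 ± 0.13, passed the test (adjusted p = 0.0268, edgeR). Leaving out control mouse 105 or treated mouse 402 raised its adjusted p to 0.137 and 0.139. In females the log2 fold change was -0.29 ± 0.13 (adjusted p = 0.258). At 0.5 mg/kg/day the males stood at 3219 to 4095 CPM, with a log2 fold change of 0.22 ± 0.13 that did not pass the test (adjusted p = 0.402).

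Because Ass1 and Arg1 are read in the same library, their ratio does not depend on how libraries are scaled. In control males the ratio of Arg1 to Ass1 reads was 0.449 to 0.790 (median 0.528), and at 5 mg/kg/day it was 0.867 to 1.51 (median 0.975). In control females it ranged from 0.664 to 0.938, and at 5 mg/kg/day from 1.06 to 1.58. In males at 0.5 mg/kg/day, where Ass1 was called and Arg1 was not, it ranged from 0.827 to 1.38. The groups at 5 mg/kg/day lay above the controls in both sexes, so in these mice Ass1 was lower relative to Arg1. The pair was chosen after the values were seen, with Arg1 as the least changed cycle enzyme. That choice favours a separation of the ratio, and no test was made of it.

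**Figure D2:**
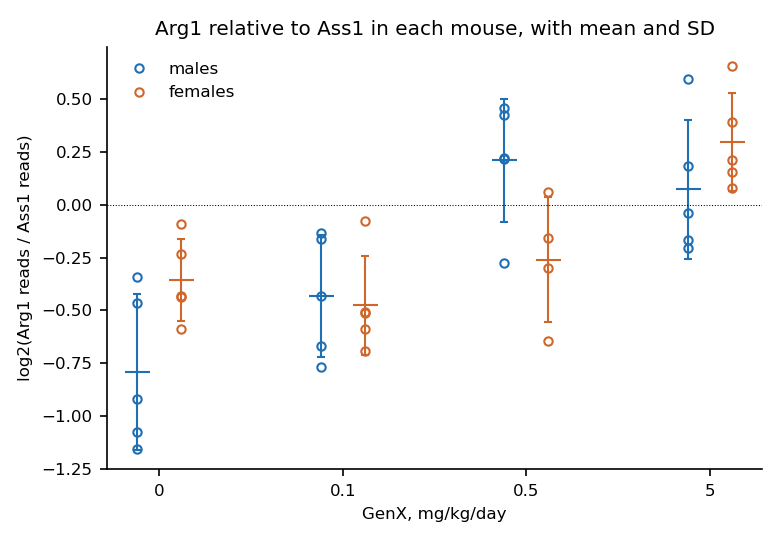
Ratio of Arg1 to Ass1 reads in each mouse on a log2 axis, by GenX dose (mg/kg/day) and sex; points are mice, and bars are the group mean and SD. In females the mean log2 ratio is -0.36 in controls and 0.30 at 5 mg/kg/day, and in males -0.79 and 0.07.

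Nags, which makes the N-acetylglutamate that Cps1 requires, did not pass the test at any dose on its reads with edgeR. In control males it stood at 91.4, 72.4, 85.5, 63.4 and 97.0 CPM, at 0.5 mg/kg/day at 63.0, 67.6, 51.1, 65.6 and 46.6, and at 5 mg/kg/day at 49.7, 63.9, 62.5, 63.0 and 83.6. The 3 groups overlapped each other. Nags had a log2 fold change of -0.48 ± 0.20 at 0.5 mg/kg/day (adjusted p = 0.259, edgeR) and -0.34 ± 0.20 at 5 mg/kg/day (adjusted p = 0.333). In males it passed at both doses when reads were divided into molecules (adjusted p = 0.052 and 0.0679, edgeR), and at 0.5 mg/kg/day with DESeq2 as well. In females the log2 fold change was 0.16 ± 0.21 and -0.44 ± 0.20 at the same doses. Estimated molecules of Nags ranged from 12.6 to 57.1 per library at 5 mg/kg/day. Nags shares its locus with an antisense gene, and Gls2 with Spryd4 on the opposite strand. Whether their probes also read those opposite-strand transcripts was not tested.

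Among the genes that supply nitrogen, Gls2, the liver glutaminase that releases ammonia from glutamine, changed as much as the cycle enzymes. Control males had 318, 229, 299, 379 and 292 CPM, males at 0.5 mg/kg/day 176, 262, 172, 158 and 191, and males at 5 mg/kg/day 143, 72.4, 148, 139 and 152. At 5 mg/kg/day no male reached the lowest control, and at 0.5 mg/kg/day 1 of 5 did. The log2 fold change was -0.66 ± 0.17 at 0.5 mg/kg/day (adjusted p = 0.0332, edgeR) and -1.21 ± 0.18 at 5 mg/kg/day (adjusted p = 1.14e-06). The call at 0.5 mg/kg/day was lost without control mouse 104 (adjusted p = 0.135) and without treated mouse 303 or 304 (adjusted p = 0.1 and 0.107). Control females had 384, 564, 440.0, 383 and 369.9 CPM and females at 5 mg/kg/day 248, 223, 198, 199 and 159, again without overlap. There the log2 fold change was -1.06 ± 0.18 (adjusted p = 3.44e-05). Females at 0.5 mg/kg/day, with 282, 359, 302 and 300.2 CPM, lay below all controls at a log2 fold change of -0.46 ± 0.19 (unadjusted p = 0.016, adjusted p = 0.485, edgeR).

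Glud1, the mitochondrial glutamate dehydrogenase, was lower at 5 mg/kg/day by less than the cycle enzymes other than Arg1. Control males had 1050.5, 1109, 877, 1010.1 and 1086 CPM and males at 5 mg/kg/day 655, 544, 711, 1122 and 815. Treated mouse 404 stood above all controls. The log2 fold change of -0.42 ± 0.14 had an adjusted p of 0.0713 (edgeR), and leaving out any of 7 mice raised it above 0.1. Control females had 985, 1266, 1275, 1092 and 1387 CPM and females at 5 mg/kg/day 639, 732, 961, 792 and 870.1, without overlap. Glud1 changed there by -0.59 ± 0.14 on the log2 scale (adjusted p = 0.00833, edgeR).

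Gpt and Got1, the cytosolic alanine and aspartate aminotransferases, were not called on their most counted probes. Gpt stood at 117 to 193 CPM in control males and at 116 to 168 at 5 mg/kg/day, and at 144 to 224 and 135 to 222 CPM in females. Its log2 fold change was -0.21 ± 0.18 in males and -0.04 ± 0.18 in females. Got1 was sparse. Control females had 29.2, 28.4, 34.2, 34.3 and 31.4 CPM, or 9.48 to 17.3 estimated molecules, whereas females at 5 mg/kg/day had 35.7, 4.85, 5.10, 12.8 and 7.35 CPM. Control males ranged from 0.426 to 37.6 CPM and males at 5 mg/kg/day from 0 to 6.79. Got1 had log2 fold changes of -1.72 ± 0.71 in males (adjusted p = 0.158, edgeR) and, in the female series, -1.26 ± 0.69 (adjusted p = 0.372), with standard errors several times those of the other members. Single mice moved these values, to -0.80 in males without control mouse 105 and to -2.06 in females without treated mouse 451. Got1 was called in males without control mouse 102 (adjusted p = 0.0635, edgeR), and in both sexes when its probes were summed (adjusted p = 0.000487 and 0.0217).

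**Figure D3:**
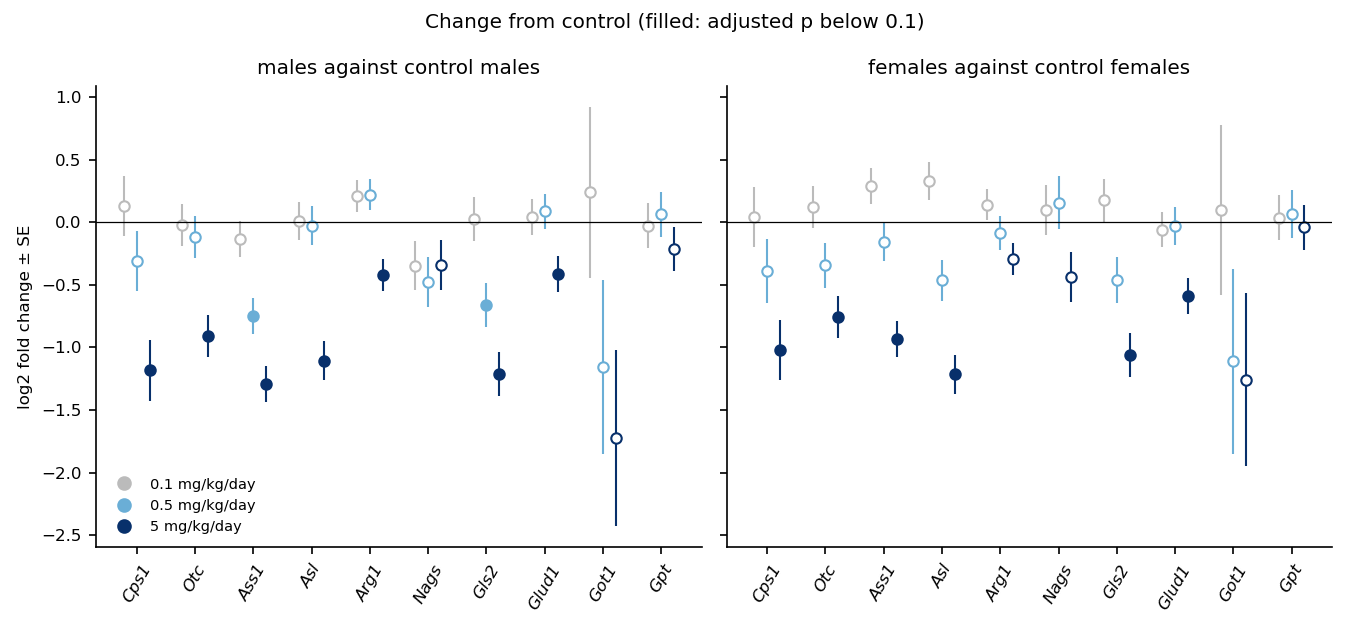
Log2 fold change against control mice of the same sex with its standard error for the 10 genes, at 0.1, 0.5 and 5 mg/kg/day; filled points had an adjusted p below 0.1. At 5 mg/kg/day 7 genes are filled in males and 6 in females, all below 0, and at 0.5 mg/kg/day Ass1 and Gls2 in males.

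At 0.5 mg/kg/day, 2 of the 10 genes were lower in males, Ass1 and Gls2, where 0.733% of all genes were lower. By probe, 114 were lower and 311 higher in males at this dose, and with DESeq2's size factors in the same fit 152 and 255. In females 0 of 10 were called by edgeR or by DESeq2. Over all probes DESeq2 called 144 lower and 158 higher of 19296 there. By edgeR 0.0242% of all genes were lower in females, and 2 of the 10 had an unadjusted p below 0.05. The median log2 fold change of the 10 was -0.22 in males and -0.25 in females, compared with 0 over all genes in both. At 0.1 mg/kg/day, 0 of 10 were called by either tool in either sex. Over all probes DESeq2 called 98 lower and 175 higher of 19296 in males, and 90 and 76 of 20188 in females. By edgeR 0.0403% of all genes in males and 0% in females were called in either direction. An unadjusted p below 0.05 at 0.1 mg/kg/day was found for 0 genes in males and for 2 in females, Ass1 and Asl, both with higher values than in controls. Females at that dose had 5492 to 9499 CPM of Ass1 and 923 to 1687 of Asl, which overlapped the control values.

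From 0.5 to 5 mg/kg/day, the same 7 genes that were lower against controls were lower in males, where 1.84% of all genes were lower. Asl fell by the largest amount, from 477 to 673 CPM to 231 to 292, with a log2 fold change of -1.08 ± 0.16 (adjusted p = 3.67e-06, edgeR). In females 3 of 10 were lower over this step, Ass1, Asl and Glud1, compared with 0.749% of all genes. The Glud1 call was lost without any 1 of mice 351, 354, 451, 452 and 454, with an adjusted p of up to 0.192 (edgeR). In males Gls2 had an adjusted p of 0.0987 over the step, the nearest of the 7 to the threshold. These steps share the mice at 5 mg/kg/day with the comparisons against controls and are not independent of them. Leaving out 1 male at a time left 3 to 7 of the genes called. It was 3 without mouse 302 or mouse 401 and 4 without mouse 402. In these 10 fits the call was lost 8 times for Gls2, 5 for Glud1, 3 for Ass1 and 2 for Cps1. It was lost 0 times for Otc, Asl and Arg1.

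The response did not differ between the sexes by the test of the difference itself for any of the 10 genes. This held at 0.1, 0.5 and 5 mg/kg/day with edgeR and with DESeq2, where 0%, 0.322% and 1.19% of all genes differed. An unadjusted p below 0.05 was found for 1 gene at 0.1 mg/kg/day, 2 at 0.5 mg/kg/day and 0 at 5 mg/kg/day. The smallest of these p belonged to Ass1 at 0.5 mg/kg/day, whose log2 fold change was lower in males than in females by a difference of -0.59 ± 0.21 (unadjusted p = 0.00645, adjusted p = 0.213). The Ass1 call at 0.5 mg/kg/day in males alone is therefore not shown to be particular to males.

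Among the controls, Asl and Arg1 were lower in males than in females, 2 of 10 genes, where 2.37% of all genes were lower in males. Arg1 stood at 2643 to 4015 CPM in control males and 3835 to 6181 in control females, a log2 difference of -0.58 ± 0.13 (adjusted p = 0.00306, edgeR). Asl stood at 429.6 to 641 CPM in control males and 716 to 1209.5 in control females, without overlap, a log2 difference of -0.60 ± 0.15 (adjusted p = 0.0198). The Asl call was lost without male 102 (adjusted p = 0.101) or without female 152 (adjusted p = 0.151). Gls2 had a log2 difference of -0.50 ± 0.17 that did not pass (adjusted p = 0.145).

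Of the 10 genes, 5 have more than 1 probe. The other probe of Ass1 was lower at 5 mg/kg/day by a log2 fold change of -1.11 ± 0.14 in males and -0.93 ± 0.14 in females, and at 0.5 mg/kg/day in males by -0.47 ± 0.14 (adjusted p = 0.0668, edgeR). The other Glud1 probe gave -0.71 ± 0.13 in males (adjusted p = 8.35e-05) and, in the female series, -0.53 ± 0.13 (adjusted p = 0.00895). The other Asl probe was called in males (-1.54 ± 0.35) and not in females (-0.95 ± 0.34, adjusted p = 0.167). Gls2 has 2 further probes, of which 1 was called in both sexes at 5 mg/kg/day and 1 in neither. The latter stood at a log2 fold change of 0.036 in males at 0.5 mg/kg/day, where the most counted probe was called lower. For Got1, 1 of 2 further probes was called in males, at a log2 fold change of -2.40 ± 0.67 (adjusted p = 0.0157). All 14 values of the 7 further probes at 5 mg/kg/day were below 0.

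**Figure D4:**
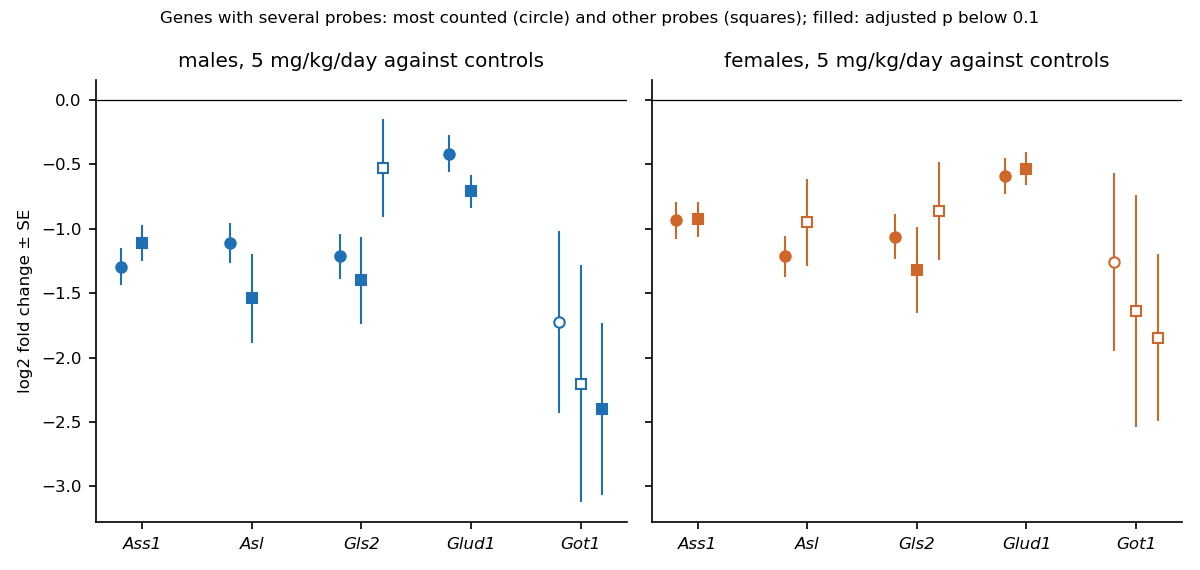
Log2 fold change at 5 mg/kg/day against controls, with its standard error, for the most counted probe (circle) and each other probe (squares) of the 5 genes with more than 1 probe, by sex; filled points had an adjusted p below 0.1. All points lie below 0, and those of Got1 have the widest errors.

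Other genes that handle nitrogen were taken from a list of 40 symbols, of which 39 are in the table and 34 could be tested. At 5 mg/kg/day 7 were lower and 1 was higher in males, where 3.75% of all genes were lower and 5.59% higher. In females 4 were lower and 1 was higher, where the shares of all genes were 2.00% and 2.09%. Their median log2 fold change was -0.10 in males and -0.23 in females, compared with 0.11 and -0.01 over all genes. At 0.5 mg/kg/day 0 of 34 were called by edgeR in either sex, where 2.61% of all genes in males and 0.201% in females were called in either direction. At that dose the unadjusted p was below 0.05 for 2 of them in males and for 5 in the female series, and DESeq2 called 1 in each sex. Over all probes DESeq2 called 345 lower and 519 higher of 18099 in males, and 144 and 158 of 19296 in females.

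Of the mitochondrial carriers and suppliers, Slc25a15, which exchanges ornithine and citrulline across the inner membrane, was lower in both sexes. It went from 295 ± 40.5 CPM (SD, n = 5) to 209 ± 24.9 in males (adjusted p = 0.0266, edgeR) and from 371 ± 54.8 to 228 ± 32.6 in females (adjusted p = 0.0017). Car5a, the mitochondrial carbonic anhydrase that supplies bicarbonate, went from 304 ± 66.0 to 133 ± 76.7 CPM in males (adjusted p = 0.000185). In females it went from 363 ± 45.5 to 314 ± 96.1 CPM (adjusted p = 0.975), while the male and female responses were not separated by the interaction test (adjusted p = 0.126). Slc25a13 and Slc25a12, the aspartate-glutamate carriers, were among the 5 of 7 genes of this group not called in males.

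Prodh, the proline oxidase of the inner membrane, had the smallest p of the list in both sexes. It went from 152 ± 8.85 to 33.3 ± 13 CPM in males (log2 fold change -2.19 ± 0.24, adjusted p = 2.13e-09, edgeR) and from 215 ± 63.2 to 74.2 ± 33.4 CPM in females (-1.53 ± 0.24, adjusted p = 1.03e-05). Oat, which converts ornithine to glutamate semialdehyde, went from 88.2 ± 23.9 to 25.5 ± 12.6 CPM in males (adjusted p = 0.000942). In females Oat stood at 184 ± 106 and 102 ± 55.5 CPM (adjusted p = 0.258). Slc1a2, a glutamate transporter, was lower in both sexes, with log2 fold changes of -1.97 ± 0.57 in each. Oaz1, the antizyme that restrains polyamine synthesis, was lower in males at -0.53 ± 0.13 (adjusted p = 0.00333). Slc7a2, an arginine transporter named after its values were seen, was lower in males at -0.79 ± 0.21 (adjusted p = 0.0089).

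Glul, the glutamine synthetase of pericentral hepatocytes that captures ammonia left over from the cycle, passed the test in females (-0.68 ± 0.22, adjusted p = 0.0852, edgeR). In males its log2 fold change was -0.57 ± 0.22 (adjusted p = 0.122). The mitochondrial transaminases Got2 and Gpt2 were not called. Got2 had log2 fold changes of -0.09 ± 0.10 in males and 0.29 ± 0.10 in females, and Gpt2 of 0.46 ± 0.37 and -0.81 ± 0.37. Arg2, the mitochondrial arginase, had reads in 1 library each of males and females at 0.1 mg/kg/day and 0 reads in the other groups, and was not tested.

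Aqp3, an aquaglyceroporin, was the 1 gene of the list that was higher. It had 0 reads in all 5 control females and at most 1 read in a control male, whereas all 5 males at 5 mg/kg/day had 35 to 303 reads and all 5 females 10 to 230. These amount to 2.46 to 20.4 CPM in males and 0.731 to 17.3 in females (adjusted p = 0.0281 and 0.0276, edgeR). At 0.5 mg/kg/day 1 of 5 males and 0 of 4 females had reads. The lowest of these counts are at or below the reads of 1 molecule.

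**Figure D5:**
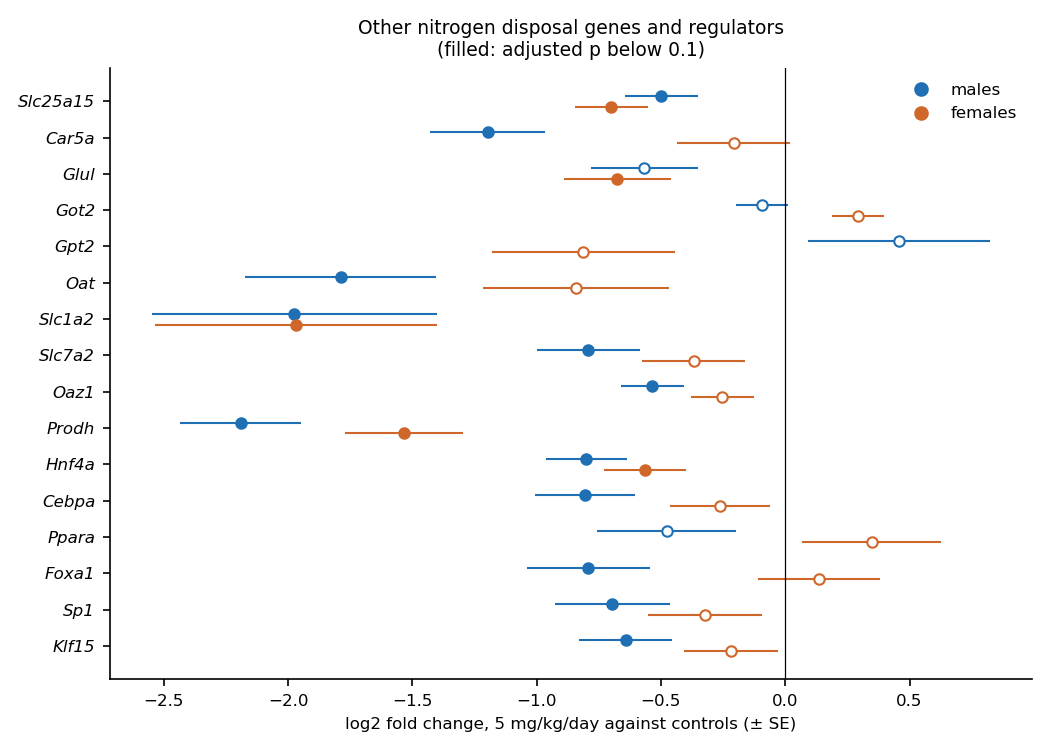
Log2 fold change at 5 mg/kg/day against controls of the same sex, with its standard error, for a selection of the tested genes. They are genes of nitrogen handling and transcription factors and receptors that act on urea cycle genes. The selection took genes called in either sex and some others, so most tested genes that were not called are absent. Aqp3, called higher in both sexes, was also left out. Filled points had an adjusted p below 0.1. Among the genes drawn, Prodh lies furthest below 0 in males, at -2.19, and Hnf4a is filled in both sexes.

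Of 14 factors and receptors known to act on urea cycle genes, 5 were lower in males at 5 mg/kg/day and 1 in females, beside 3.75% and 2.00% of all genes. None of the 14 was called higher, beside 5.59% and 2.09%. Hnf4a, the nuclear receptor that maintains hepatocyte genes, went from 358 ± 101 to 206 ± 20.3 CPM in males (adjusted p = 0.000497, edgeR) and from 327 ± 51.9 to 221 ± 34.6 in females (adjusted p = 0.0439). Cebpa, a C/EBP factor of mature hepatocytes, went from 1284 ± 203 to 735 ± 174 CPM in males (adjusted p = 0.00589). In females it stood at 1119 ± 277 and 933 ± 322 CPM (adjusted p = 0.734). The others called in males were Klf15 at -0.64 ± 0.19, Foxa1 at -0.79 ± 0.25 and Sp1, named after its values were seen, at -0.69 ± 0.23. Ppara, the receptor for peroxisome proliferators, was not called, at -0.48 ± 0.28 in males and 0.35 ± 0.28 in females.

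Markers of liver cells were read beside these genes, at 5 mg/kg/day against controls. Of all genes, 3.75% were lower and 5.59% higher in males, and 2.00% and 2.09% in females. Some markers are not separate from the genes above. Glul, Oat, Slc1a2 and Rhbg are also among the nitrogen genes, and Hnf4a is among the factors. Of the 6 hepatocyte markers tested, 3 were lower in each sex at 5 mg/kg/day, and their summed level was 11437 to 13029 CPM in males against 15487 to 19134 in controls. In females it was 13649 to 15728 CPM against 17837 to 19713. The 3 in females were Serpina1b, Fgb and Hnf4a, whereas Alb, Ttr and Apoa2 were not called. Mean Serpina1b in males went from 5021 to 1475 CPM and Fgb from 2807 to 1834. Alb stood there at 3366 and 3203 CPM, Ttr at 3640 and 3262, and Apoa2 at 2270 and 2463. The sum adds probes that differ in efficiency, so it does not measure hepatocyte content. Of the 5 periportal markers, 4 were lower and 1, Hsd17b13, was higher in males, and 2 were lower in females. Of the 9 pericentral markers, 4 were lower in males and 3 in females. The 3 in females were Glul, Slc1a2 and Cyp1a2. Of those not called in females, Cyp2e1, Tbx3, Lgr5 and Rhbg had log2 fold changes above 0, and Oat and Axin2 below 0. Stellate cell markers summed to 157 to 196 CPM in males at 5 mg/kg/day and 67.3 to 133 in control males, and 2 of 7, Col1a1 and Col3a1, were higher. In females they summed to 95.5 to 154 and 103 to 160 CPM. Macrophage marker sums overlapped between these groups in both sexes, and lymphocyte markers summed to at most 26.5 CPM in them. Of 6 endothelial markers 1, Clec4g, was lower in males and 0 in females. None of the 3 cholangiocyte, 9 macrophage, 4 lymphocyte or 2 pancreas markers tested was called by edgeR in either sex. The cholangiocyte sum was at most 95.2 CPM, and that of kidney and pancreas markers at most 18.4. The part of these shifts in the changes of the urea cycle genes was not tested. In a whole section, fewer cells of a type and less RNA per cell cannot be told apart.

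Across the 39 libraries the 10 genes varied together, with a median pairwise Pearson correlation of log2 CPM of 0.565 over 45 pairs and of 0.737 over the 10 pairs of cycle enzymes. After the group means were removed these medians were 0.117 and 0.244, with a range over all pairs of -0.184 to 0.615. The pair that then varied most alike was Asl and Gls2, at 0.615, and Ass1 and Gls2 followed at 0.569. The libraries share their depth and section quality between genes, so these values are descriptive. The genes outside the 10 whose levels most resembled the mean of the 5 cycle enzymes over the 39 libraries were Plg, Amy1, Apoc3, Gnmt and Crp, with correlations of 0.923, 0.911, 0.901, 0.901 and 0.899. With group means removed, Apoc3, Cth, Bcl7c and Omd were among the 5 most alike, with correlations of 0.705, 0.650, 0.611 and 0.607.

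In GRCm38 the 10 genes lie apart from each other. Cps1 spans chr1:67123026-67231259, Otc chrX:10252305-10321024, Ass1 chr2:31470207-31520672, Asl chr5:130011258-130029247 and Arg1 chr10:24915221-24927484. Nags spans chr11:102145513-102149477, Gls2 chr10:128194457-128210004, Glud1 chr14:34310727-34345265, Got1 chr19:43499752-43524605 and Gpt chr15:76695716-76699686. Asl, Arg1 and Got1 are on the minus strand and the others on the plus strand.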

How the data were processed

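Reads of the TempO-Seq libraries were assigned by the authors to probes, and the deposited values are raw read counts per probe, with no normalization (30146 probes, 40 columns, one per mouse). The submitters' processing notes name bcl2fastq 2.17.1.14, Bowtie and mm10. Counts were fitted in R 4.3.3 with edgeR 4.0.16: the default filter on low counts, TMM scaling, one quasi-likelihood fit of 8 groups, two-sided tests and Benjamini-Hochberg adjustment over all probes, with a threshold of 10%. The threshold, the depth limit of 2 SD and the choice of the most counted probe follow the study's methods. Its own tool, DESeq2 (1.42.0 here), was an alternative. Log2 CPM used a prior count of 2. All members were named; from each list at most 4 genes per comparison with the smallest p past the threshold were named, plus Glul, Oat, Arg2, Got2, Gpt2, Slc25a15, Car5a and Ppara. The members and lists were chosen with earlier results of these data known. Replicates are separate mice. Depth sets the precision: reads are amplified copies, so a gene read from few molecules carries counting error that more reads do not reduce.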

Additional observations from a re-analysis of the deposited data

Results flagged for a closer look

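In 80 combinations of gene and group, 6 had a mouse whose gap to its nearest neighbour, as a share of the group's range of log2 CPM, exceeded Dixon's 95% critical value. Chance gives about 1 in 20, or 4 of 80. Asl had 3 of the 6. In control males mouse 102 had 429.6 CPM and the others 574 to 641. In females at 0.1 mg/kg/day mouse 255 had 1687 CPM and the others 923 to 983. In females at 0.5 mg/kg/day mouse 352 had 619 CPM, in a group so tight that the others lay at 633 to 636. Gls2 stood at 409.9 CPM in mouse 201 against 272 to 306 in the other males at 0.1 mg/kg/day, and at 72.4 CPM in mouse 402 against 139 to 152 in the other males at 5 mg/kg/day. Got1 had 0 reads in mouse 405, where the other males at 5 mg/kg/day had 3.21 to 6.79 CPM. Without mouse 402 Gls2 stayed lower at 5 mg/kg/day. None of the 10 genes responded differently in the sexes past the threshold of edgeR or DESeq2. In the library of mouse 355, which was left out, none of the 10 genes stood above the control females, and Cps1 and Otc had 0 reads. All of the 10 except Nags stood below the lowest control female, with Ass1 at 796 CPM against 5295 to 6792. That library rested on an estimated 91945 molecules, and whether its low values reflect dose or depth was not tested.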

How the results depend on the processing

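Over all alternatives, 355 values of called gene changes kept their direction and their call, and 53 kept the direction and lost the call. The 1 that turned was Gls2 in males at 0.5 mg/kg/day on its second other probe. Fits that left out 1 mouse share nearly all libraries with the main fit and gave 229 of the 355 and 38 of the 53. With all 40 libraries 6 calls were kept and 9 lost, and on other probes 8 were kept and 4 lost. A further 11 values that were not called passed under an alternative, 7 of Got1, 3 of Nags in males and 1 of Arg1 in females at 5 mg/kg/day without the filter on low counts (adjusted p = 0.0908, edgeR). With all 40 libraries fitted together, 0 genes were called in males at 0.5 mg/kg/day and 3 in each sex at 5 mg/kg/day (Ass1, Asl and Gls2). Of the 17247 probes in that fit, 0.0696% were lower in males at 0.5 mg/kg/day. At 5 mg/kg/day 1.92% were lower in males and 0.667% in females. With reads divided into molecules, 9 male and 6 female changes were called at 5 mg/kg/day, where 18.3% and 8.65% of the 5327 probes then tested were lower. Leaving out 1 mouse at a time gave 5 to 7 members called in males and 5 to 6 in females at 5 mg/kg/day. It gave 1 to 2 in males at 0.5 mg/kg/day and 1 to 3 between control males and females. From 0.5 to 5 mg/kg/day in males it gave 3 to 7. DESeq2 called 1 of the other nitrogen disposal genes in males at 0.1 mg/kg/day, in males at 0.5 mg/kg/day and in females at 0.5 mg/kg/day, where edgeR called 0. At 5 mg/kg/day the main fit called 8 of them in males and 5 in females. DESeq2, and its size factors in edgeR, gave 10 to 12 in males and 4 to 7 in females. Over all probes at that dose DESeq2 called 882 lower and 978 higher of 17956 in males, and 470 and 518 of 18326 in females. With its size factors these were 711 and 733, and 301 and 340, of 17877. Values near 0 turned, and the cause was not tested. That Gls2 probe gave 0.036 and the other Glud1 probe -0.18 in males at 0.5 mg/kg/day, where summed probes gave -0.020 for Glud1 and molecules -0.014 for Gpt. With all 40 libraries Gpt was -0.14 in females at 0.5 mg/kg/day. Leaving out 1 mouse at 0.5 mg/kg/day moved the log2 fold change in males from -0.12 to 0.026 for Asl, -0.10 to 0.17 for Gpt and -0.00485 to 0.14 for Glud1. In females it moved from -0.16 to 0.00824 for Arg1, -0.013 to 0.14 for Gpt and -0.092 to 0.028 for Glud1, and at 5 mg/kg/day from -0.13 to 0.048 for Gpt. The median log2 fold change of all probes in males at 5 mg/kg/day was 0.10 with TMM and 0.03 with DESeq2's size factors. No paired analysis was possible because each animal number occurs in 1 group only. Depth limits Got1, Nags and Cps1 most.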
